A study of Mus musculus with 18 samples.

Results

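Imprinted genes are expressed mainly or only from the copy inherited from a single parent. The 44 genes described here were listed by name and matched through the Ensembl identifiers of the count table, 44 of 53801 genes. The matching rule uses no measured value, although the list was drawn up with earlier results of these data known. They fall into 20 imprinted clusters or single loci, and 42 of them had enough reads to be tested, together with 18469 genes in all. Airn and Rasgrf1 were too low to be tested. The question was which of these genes differ between the 2 cell lines at every stage, as a fixed difference between the lines would, and which change as the cells leave naive pluripotency.

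The libraries came from mouse embryonic stem cells (ESCs) of a wild-type line (WT), given in the study's methods as E14TG2a, and from a derived line, iEZR_CA, in which doxycycline switches on a phosphomimetic, constitutively active form of ezrin from a PiggyBac insertion with an mCherry marker. Ezrin ties the plasma membrane to the actin cortex. Each line was sampled in the naive state, under 2i+LIF (ESC, 0 h), and again once N2B27, which lacks the naive factors, had been on the cells for 24 h (T24) or 48 h (T48), and the 6 groups held 3 biological replicates apiece. Doxycycline was added to iEZR_CA about 16 h ahead of exit, and the sources used here mention none in WT cultures. The transgene, the drug and the derivation of the line therefore cannot be told apart in any comparison of the lines. The share of reads with too low alignment quality also separated the lines, at 0.519% to 0.612% in WT libraries and 0.889% to 1.02% in iEZR_CA libraries. What lay behind this was not tested. Gene reads per library ran from 10940752 to 33276622. Ezr was higher in iEZR_CA at every stage, at 24819, 20793 and 16215 normalized counts (ESC, T24 and T48) against 11763, 7711 and 10096 in WT.

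Imprinting is set by DNA methylation that is placed in the egg or the sperm at imprinting control regions and is kept through the wave of demethylation after fertilization. Many imprinted genes lie in clusters that share a control region, in which a long noncoding RNA is expressed from the parental copy on which nearby protein-coding genes are silent. Several of them act on fetal and placental growth, and imprints are known to be unstable in cultured ESCs, above all in 2i medium. The counts hold no information on the parental copy, so every value below is the sum of both alleles. The parental copy named for a gene is the one listed for it beforehand. Whether a gene was expressed from that copy alone in these cells was not measured. In bulk RNA, fewer cells that express a gene and less RNA per cell cannot be told apart.

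The control regions lie at or close to the promoters of several members. The stretch just before an annotated start was taken for 3 of the genes with large line differences or interactions. Whether these stretches lie in control regions was not examined. The whole stretch between Peg3 and Usp29, which are transcribed away from each other, was added. Sequences are from RefSeq on GRCm38.p6, 5′ to 3′ on the strand of the gene (plus strand for Peg3-Usp29), with CpG dinucleotides, the sites of methylation, in capitals. They lie at chr12:109540746-109540995 (Meg3, plus strand), chr10:13090582-13090831 (Plagl1, plus strand), chr15:97055957-97056206 (Slc38a4, minus strand) and chr7:6730420-6730582 (Peg3-Usp29).
Meg3: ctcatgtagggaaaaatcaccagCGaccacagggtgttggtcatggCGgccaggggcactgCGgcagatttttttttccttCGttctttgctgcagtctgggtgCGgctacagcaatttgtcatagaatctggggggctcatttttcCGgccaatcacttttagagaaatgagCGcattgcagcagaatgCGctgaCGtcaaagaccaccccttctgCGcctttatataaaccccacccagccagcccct
Plagl1: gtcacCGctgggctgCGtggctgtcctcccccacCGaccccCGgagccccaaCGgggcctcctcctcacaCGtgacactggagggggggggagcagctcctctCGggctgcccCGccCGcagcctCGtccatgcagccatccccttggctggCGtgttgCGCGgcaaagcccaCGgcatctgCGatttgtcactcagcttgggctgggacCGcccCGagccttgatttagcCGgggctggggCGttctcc
Slc38a4: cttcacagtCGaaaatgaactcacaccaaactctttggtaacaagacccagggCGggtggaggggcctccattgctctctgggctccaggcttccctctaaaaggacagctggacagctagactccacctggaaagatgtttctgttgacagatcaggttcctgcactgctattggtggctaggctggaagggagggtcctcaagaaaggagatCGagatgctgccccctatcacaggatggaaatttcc
Peg3-Usp29: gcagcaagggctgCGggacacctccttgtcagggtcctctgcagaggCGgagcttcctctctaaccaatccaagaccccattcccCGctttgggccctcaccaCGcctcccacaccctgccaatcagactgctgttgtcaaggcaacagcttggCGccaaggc
The Plagl1 stretch lies inside the gene as annotated in GENCODE M21 (chr10:13060504-13131694), before an internal start. It held 19 CpG, the Meg3 stretch 10, the shorter Peg3-Usp29 stretch 5 and the Slc38a4 stretch 3. The letters TGCCGC, the core recognized by the imprint-protecting factor ZFP57 when its CpG is methylated, occurred on either strand in the Meg3 and Plagl1 stretches and in neither of the others. Over the 37 members with a promoter window of 300 bases in the reference (56 windows), 21.4% of windows held TGCCGC against 11.6% of all 32851 windows. Among members these were 12 windows of 11 genes, since overlapping windows of Mest both held it. The median window held 13.5 CpG among members and 7 among all genes. TGCCGC itself contains a CpG, and the shares were not compared at equal CpG content. The TGCCGC counts are matches of letters, and methylation was not measured in these libraries.

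In naive ESCs, 20 of the 42 tested members were higher in iEZR_CA than in WT and 10 were lower, against 26.4% and 28.1% of all genes tested (30 in either direction, against 54.5%). At T24, 15 were higher and 18 lower (30.8% and 30.1% of all genes, 60.9% in either direction), and at T48, 16 were higher and 19 lower (31.0% and 30.1%, 61.1% in either direction). The median absolute log2 difference of the members was 0.504, 0.506 and 0.569 at ESC, T24 and T48, against 0.274, 0.335 and 0.329 over all genes tested. Of the genes listed as maternally expressed (19 tested), 10 were higher and 4 lower in ESCs. Of those listed as paternally expressed (23 tested), 10 were higher and 6 lower. At T48 these counts were 9 and 7 for maternal genes, and 7 and 12 for paternal genes.

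**Figure D1:**
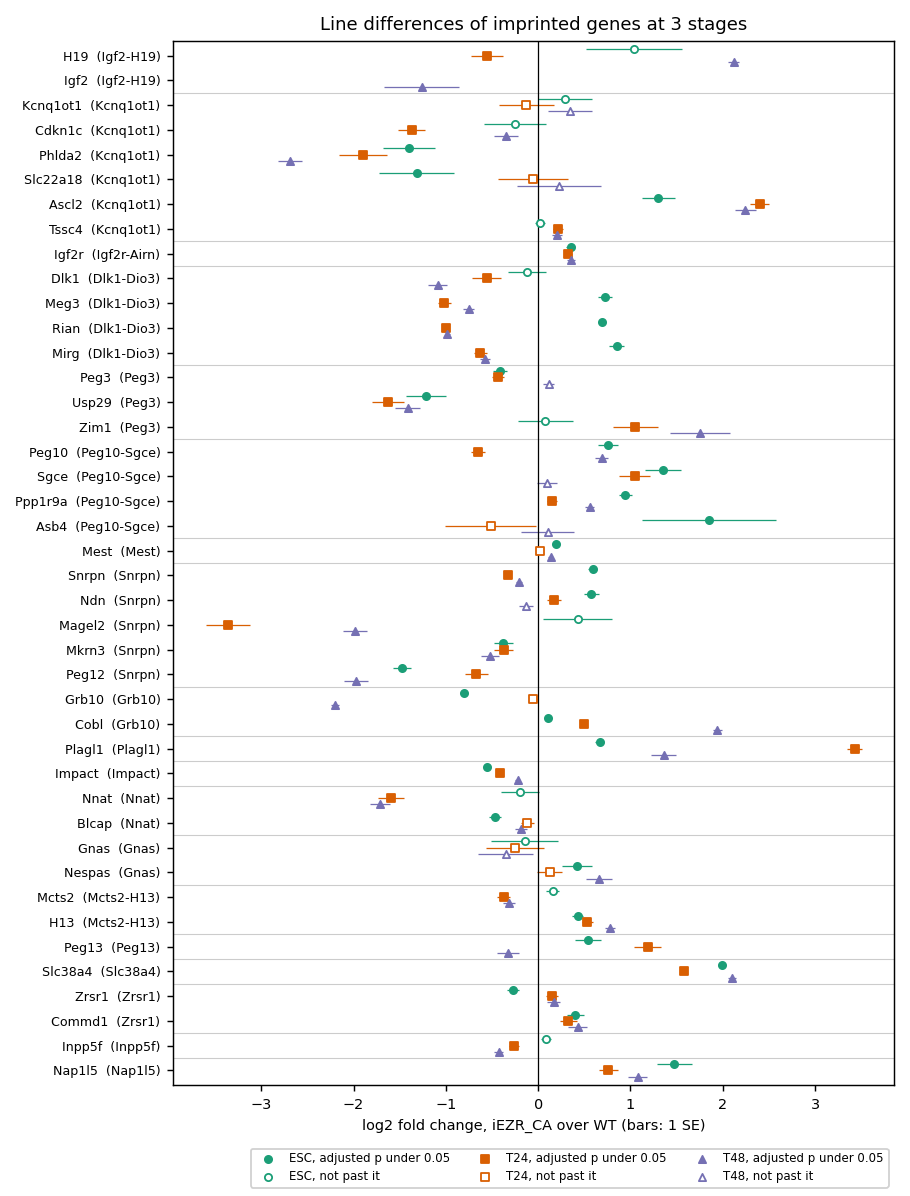
The x axis gives the log2 fold change of iEZR_CA over WT with bars of 1 standard error, and each line of the y axis is a tested member with its cluster, at ESC (circles), T24 (squares) and T48 (triangles). Filled symbols passed an adjusted p of 0.05, and Igf2 is shown at T48 only because its reads were too few before. Slc38a4 and Ascl2 lie right of zero and Phlda2 and Usp29 left of it at every stage, whereas Meg3, Rian and Mirg change sides between ESC and T24.

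A line difference with the same sign at all 3 stages was found for 14 members, 9 higher in iEZR_CA (12.2% of all genes tested) and 5 lower (11.1%), which is 33.3% of members against 23.3% of all genes. Shares of members and of all genes, here and elsewhere, were not compared at equal expression level. The 9 were Ascl2, Igf2r, Ppp1r9a, Cobl, Plagl1, H13, Slc38a4, Commd1 and Nap1l5, and the 5 were Phlda2, Usp29, Mkrn3, Peg12 and Impact. Only Slc38a4 and Ascl2 were at least 2-fold higher at each stage (1.64% of all genes) and only Phlda2 and Usp29 at least 2-fold lower (1.54%, and 3.18% in either direction). A minimum of 10 counts in every library removes Phlda2 from the genes tested. With the libraries scaled on the spike-in RNAs instead, 7 members were higher and 3 lower at every stage, and 2 in each direction were at least 2-fold. Mkrn3 was among those lost.

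Slc38a4 encodes an amino acid transporter of placenta and liver and is expressed from the paternal copy (chr15:96994820-97055956). In WT ESCs its libraries held 2851, 2519 and 2399 normalized counts, and in iEZR_CA ESCs 10475, 10197 and 10223. At T24 the WT libraries held 3354, 3155 and 3157 and the iEZR_CA libraries 9724, 9899 and 9294, and at T48 they held 1924, 1843 and 1852 against 7935, 7994 and 8064. The lowest iEZR_CA library of any stage was thus above the highest WT library of any stage, and the gap between the lines was larger than any change with exit. The log2 difference was 1.99 ± 0.04 (SE) in ESCs, 1.58 ± 0.04 at T24 and 2.10 ± 0.04 at T48, with adjusted p of 1.3e-25, 1.4e-23 and 6.3e-26. Of the variation of its log2 values between libraries, 93.1% lay between the lines. Its neighbour Slc38a2, another amino acid transporter, did not share the pattern and had log2 differences of -0.17, -1.13 and 0.44.

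Ascl2, a transcription factor needed for the trophoblast and expressed from the maternal copy (chr7:142966829-142969264), was the other gene more than 2-fold higher throughout. WT libraries held 36.0, 29.8 and 47.7 normalized counts in ESCs, 90.2, 116 and 97.7 at T24, and 77.3, 45.9 and 77.7 at T48. iEZR_CA libraries held 110, 86.2 and 85.4 in ESCs, 500, 576 and 501 at T24, and 360, 324 and 332 at T48. Both lines peaked at T24 without overlap between lines at any stage, and the log2 difference grew from 1.30 ± 0.17 (adjusted p = 3.4e-09) to 2.40 ± 0.10 (adjusted p = 1.1e-28) at T24, where the interaction of line and time was 1.10 ± 0.22 (adjusted p = 3e-05). Ascl2 lies between Th and Tspan32, and both of these neighbours were higher in iEZR_CA at every stage as well. Tspan32, a tetraspanin, had log2 differences of 2.69, 2.94 and 4.05, and Th, which encodes tyrosine hydroxylase, of 2.16, 2.02 and 1.83.

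Phlda2 limits placental growth and is expressed from the maternal copy in the same Kcnq1ot1 domain (chr7:143501545-143503150), yet it went the other way from Ascl2. WT libraries held 38.2, 25.2 and 42.6 normalized counts in ESCs, 52.2, 41.4 and 37.8 at T24, and 301, 373 and 331 at T48. iEZR_CA libraries held 15.5, 11.7 and 12.6, then 17.5, 10.6 and 10.3, and then 58.5, 53.9 and 34.8. Neither line changed past the test by T24, both rose by T48, and the lines did not overlap at any stage. The log2 difference was -1.40 ± 0.28 (adjusted p = 1.5e-05), -1.90 ± 0.26 (adjusted p = 3e-09) and -2.69 ± 0.13 (adjusted p = 2.6e-28), and the rise by T48 was smaller in iEZR_CA (interaction -1.29 ± 0.35, adjusted p = 0.0015).

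Usp29, a gene for a deubiquitinase that shares its control region with Peg3 and is expressed from the paternal copy (chr7:6730578-6967219), was lower in iEZR_CA throughout. WT libraries held 51.7, 42.8 and 48.5 normalized counts in ESCs, 83.7, 96.9 and 67.8 at T24, and 145, 143 and 155 at T48. iEZR_CA libraries held 21.0, 17.6 and 23.8, then 31.0, 27.3 and 24.4, and then 49.3, 60 and 57.6. Usp29 rose by T48 in both lines, by 3.11-fold in WT and 2.72-fold in iEZR_CA, and the line difference stayed at -1.22 ± 0.22, -1.63 ± 0.18 and -1.41 ± 0.14 on the log2 scale (adjusted p of 1.7e-06, 1.4e-12 and 1.5e-14). Peg3, a zinc finger gene that starts next to it on the opposite strand, differed less, at -0.41 ± 0.08, -0.44 ± 0.07 and 0.11 ± 0.06, of which the last did not pass the test (adjusted p = 0.12). The ratio of Peg3 to Usp29 normalized counts was 35.5 ± 2.76, 46.3 ± 10.4 and 42.3 ± 2.62 (SD, n = 3) in WT and 61.9 ± 6.74, 100 ± 10.4 and 122 ± 15.6 in iEZR_CA. In the annotation 14.3% of the exon length of Usp29 is also exon of Zim3 on the opposite strand, and whether the counting used the strand is not given in the sources used here.

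**Figure D2:**
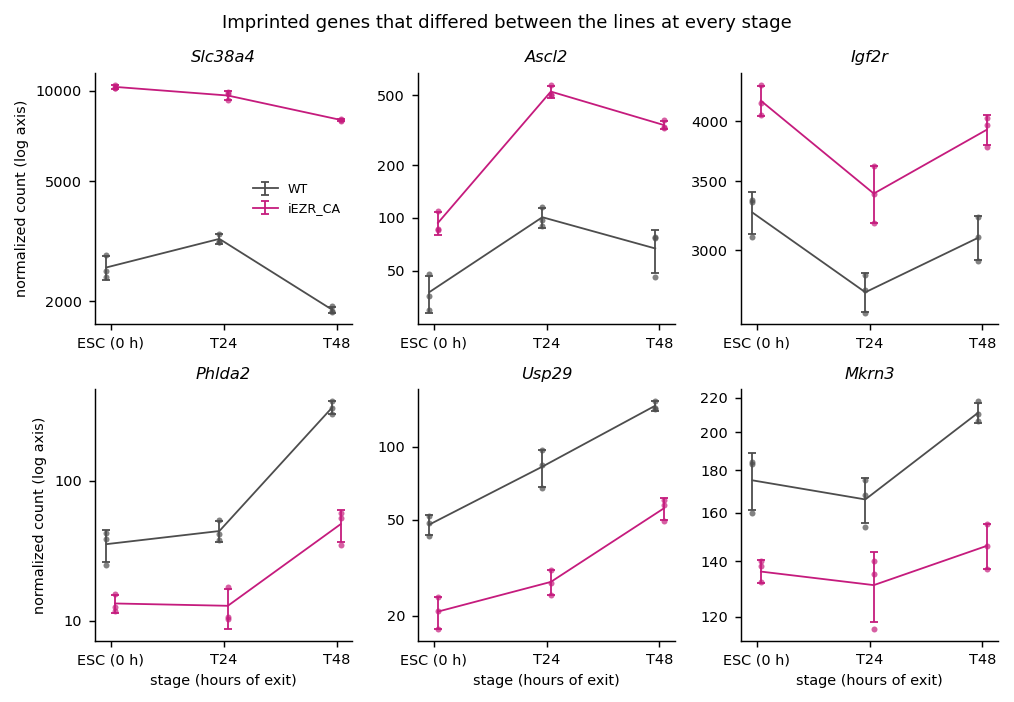
Normalized counts (y axes, log scale, 1 panel per gene) of Slc38a4, Ascl2, Igf2r, Phlda2, Usp29 and Mkrn3 at ESC, T24 and T48 (x axes) in WT (grey) and iEZR_CA (magenta), with a point per library and lines and bars for the mean and SD of 3. The lines run apart at each stage, by 3.97-fold for Slc38a4 in ESCs and by 1.28-fold for Igf2r.

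An offset called constant here had the same sign at each stage and neither interaction past the test. It was found for Igf2r and Commd1 (higher, 4.11% of all genes) and for Usp29 and Mkrn3 (lower, 4.39%). The term means only that no interaction passed, and the log2 difference of Usp29 still spanned 0.406. Igf2r, a receptor that removes IGF2 and is expressed from the maternal copy, had the steadiest offset of all members, with log2 differences of 0.35 ± 0.05, 0.32 ± 0.05 and 0.35 ± 0.05 that spanned 0.03. Its WT libraries held between 2609 and 3357 normalized counts over all stages and its iEZR_CA libraries between 3189 and 4339, with no overlap at any stage. Mkrn3, a ring finger gene known from the timing of puberty, was at 175 ± 13.7, 166 ± 10.3 and 211 ± 5.94 normalized counts in WT and 136 ± 4.23, 131 ± 12.7 and 146 ± 8.98 in iEZR_CA (SD, n = 3). Commd1, which has roles in copper handling, was at 208 ± 17.4, 206 ± 17.9 and 160 ± 20.5 in WT and 276 ± 13.6, 257 ± 21.9 and 218 ± 13.2 in iEZR_CA. Without the library WT_T24 replicate 1, a single member was left with a constant offset upwards. The other 10 members with a difference at every stage also had an interaction past the test. Among them, the log2 differences of Impact and H13 spanned 0.33 and 0.348, less than that of Usp29.

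Nap1l5, a nucleosome assembly protein gene that lies inside an intron of Herc3, was higher in iEZR_CA by 1.48 ± 0.19, 0.76 ± 0.10 and 1.08 ± 0.10 on the log2 scale. Herc3 was also higher, by 0.64, 0.28 and 0.96. Peg12, from the Snrpn cluster, was lower by 1.48 ± 0.10, 0.67 ± 0.12 and 1.97 ± 0.13, and Impact, a regulator of translation under stress and the most abundant member per kb of exon in WT ESCs, fell short of WT by 0.55 ± 0.03, 0.42 ± 0.03 and 0.22 ± 0.03. H13, which encodes an intramembrane protease, was higher by 0.43 ± 0.06, 0.53 ± 0.06 and 0.78 ± 0.06, and Ppp1r9a, a gene for an actin-binding protein, by 0.94 ± 0.07, 0.15 ± 0.06 and 0.56 ± 0.05, the middle of which was lost without WT_T24 replicate 1 or iEZR_CA_T24 replicate 2. The median log2 difference of all tested genes within 5 Mb on either side of a member lay between -0.20 and 0.37 for the 44 members at the 3 stages, and the highest values belonged to Nap1l5 in ESCs (0.37) and at T48 (0.30). Copy number of the lines was not measured.

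The noncoding RNAs of the Dlk1-Dio3 cluster on chromosome 12 moved together. Meg3, Rian and Mirg are long noncoding RNAs expressed from the maternal copy, the last 2 being hosts of small nucleolar RNAs and of microRNAs, and loss of Meg3 expression is a known fault of some pluripotent lines. In ESCs, WT libraries held 1751, 1604 and 1780 normalized counts of Meg3 and iEZR_CA libraries 2726, 2924 and 2843. At T24 the order had turned, with 3275, 3514 and 3235 in WT and 1646, 1586 and 1722 in iEZR_CA, and at T48 WT held 8692, 9000 and 10366 and iEZR_CA 5750, 5366 and 5467. The lines did not overlap at any stage, higher in iEZR_CA at first and lower afterwards.

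Rian followed the same course at higher counts. Its WT libraries held 3706, 3705 and 3566 normalized counts in ESCs, 6785, 7062 and 6375 at T24, and 20835, 20124 and 20714 at T48. Its iEZR_CA libraries held 6060, 5928 and 5774, then 3530, 3290 and 3326, and then 10453, 10524 and 10077. The log2 differences were 0.69 ± 0.03, -0.999 ± 0.03 and -0.98 ± 0.03 for Rian (adjusted p of 1.3e-28, 5.7e-37 and 2.4e-38), 0.72 ± 0.07, -1.02 ± 0.07 and -0.75 ± 0.06 for Meg3, and 0.85 ± 0.08, -0.63 ± 0.07 and -0.58 ± 0.06 for Mirg. All 3 RNAs rose in WT and fell in iEZR_CA in the first 24 h, and the interaction at T24 was -1.69 ± 0.04 for Rian (adjusted p = 5.9e-40), -1.74 ± 0.10 for Meg3 (adjusted p = 7.8e-09) and -1.48 ± 0.11 for Mirg (adjusted p = 1.6e-16). The fall of Mirg by T24, -0.36 ± 0.08, did not pass the test under spike-in scaling. By T48 they had risen over ESCs in both lines, Meg3 by 5.42-fold in WT and by 1.95-fold in iEZR_CA.

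The ratio of Meg3 to Rian stayed between 0.455 and 0.534 in the 6 group means. That of Meg3 to Mirg was 4.62 ± 0.355 (SD, n = 3) in iEZR_CA at T24 and between 5.96 and 6.79 in the other group means. Dlk1, which encodes a membrane protein of growth control and is expressed from the paternal copy of the same cluster, did not differ past the test in ESCs, with 35.4 ± 4.68 normalized counts in WT and 32.8 ± 3.67 in iEZR_CA (SD, n = 3, adjusted p = 0.65). It rose to 275 ± 21.1 in WT and 127 ± 17.6 in iEZR_CA by T48, a log2 difference of -1.09 ± 0.10 (adjusted p = 9.4e-15). Rtl1, also of the paternal copy and read as a neighbour here, had log2 differences of 0.32, -1.16 and -0.53, of which the first did not pass the test (adjusted p = 0.17). Dio3, a deiodinase gene at the far end of the cluster, went another way, at -0.67, 1.57 and -0.40, of which the last did not pass the test (adjusted p = 0.36).

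**Figure D3:**
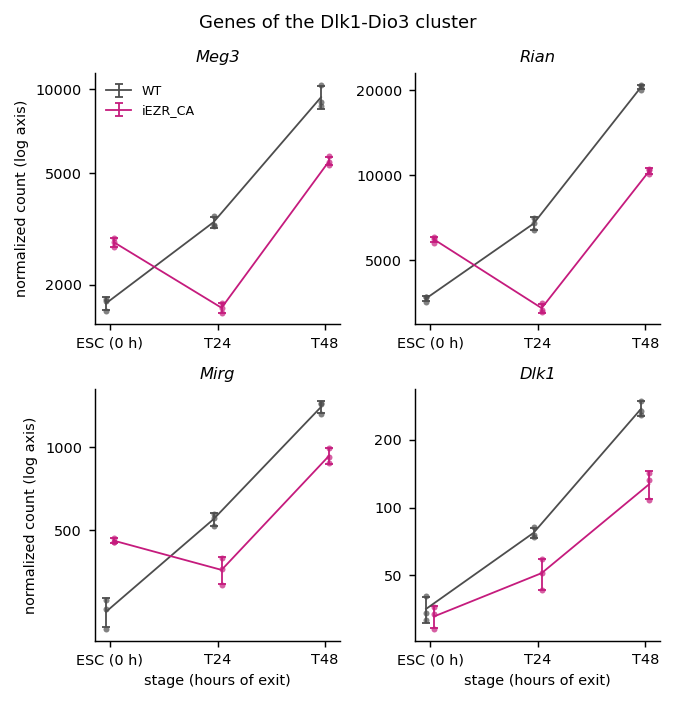
Normalized counts (y axes, log scale) of Meg3, Rian, Mirg and Dlk1 at ESC, T24 and T48 (x axes) in WT (grey) and iEZR_CA (magenta), with a point per library and the mean and SD of 3. The lines cross between ESC and T24 for the 3 noncoding RNAs, where iEZR_CA falls and WT rises.

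Line differences of opposite sign at different stages were found for 8 members, H19, Meg3, Rian, Mirg, Peg10, Snrpn, Peg13 and Zrsr1 (16.0% of all genes tested). The negative difference of Peg13 at T48 was lost without WT_T48 replicate 1 or 3 or iEZR_CA_T48 replicate 2 and with DESeq2. Both positive differences of Zrsr1 (0.15 and 0.17) were lost with DESeq2 and with several single libraries left out, among them WT_T24 replicate 2 and iEZR_CA_T48 replicate 2. Changes in opposite directions by T24, each past the test, were found for 6 members (3.93% of all genes), Meg3, Rian, Mirg, Mcts2, Slc38a4 and Inpp5f, and all 6 rose in WT and fell in iEZR_CA. With spike-in scaling 2 were left, and the small falls of Slc38a4 and Inpp5f in iEZR_CA turned to 0.053 and 0.006. No member had changed in opposite directions by T48 (4.9% of all genes), although leaving out iEZR_CA_T48 replicate 2 or replicate 3 gave 1.

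The interaction of line and time was past the test for 11 members upwards and 17 downwards at T24 (21.5% and 16.9% of all genes, 38.3% in either direction) and for 11 and 16 at T48 (25.7% and 20.0%, 45.8% in either direction). With spike-in scaling these counts were 4 and 9 at T24 and 5 and 13 at T48. Plagl1, which encodes a zinc finger protein that restrains growth and is expressed from the paternal copy (chr10:13060504-13131694), had the largest positive interaction at T24. WT libraries held 3615, 3419 and 2993 normalized counts in ESCs and 177, 192 and 213 at T24, and iEZR_CA libraries held 5263, 5296 and 5417 and then 2083, 2072 and 1962. At T48 the values were 75.0, 97.5 and 80.2 in WT and 204, 192 and 235 in iEZR_CA. Plagl1 thus fell in both lines, by 17.7-fold by T24 in WT and by 2.62-fold in iEZR_CA, with an interaction of 2.76 ± 0.09 (adjusted p = 2.4e-17), and by T48 it had fallen by 41.5-fold and 25.6-fold.

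Cobl, an actin nucleator gene next to Grb10, had the largest positive interaction at T48. WT libraries held 8637, 8816 and 8167 normalized counts in ESCs, 4316, 4288 and 4567 at T24, and 387, 447 and 428 at T48, and iEZR_CA libraries held 8931, 9262 and 9478, then 6050, 6340 and 6132, and then 1539, 1600 and 1636. The fall was 20.8-fold in WT and 5.81-fold in iEZR_CA (interaction 1.84 ± 0.06, adjusted p = 5.1e-36). Its difference in ESCs was small, 0.10 ± 0.03, and was lost with spike-in scaling. Grb10 itself, an adaptor that restrains insulin signalling, rose from 1540 ± 73.4 in WT ESCs to 4432 ± 104 at T48, whereas in iEZR_CA it went from 884 ± 47.5 to 1875 ± 75.0 at T24 and back to 956 ± 46.6 at T48 (SD, n = 3). Its log2 differences were -0.81 ± 0.04, -0.05 ± 0.04 and -2.20 ± 0.04, the middle of which did not pass the test (adjusted p = 0.27).

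Magel2, a gene of the Prader-Willi region that is expressed from the paternal copy, had the most negative interaction at both times. WT libraries held 10.1, 11.5 and 5.96 normalized counts in ESCs, 92.1, 90.8 and 99.3 at T24, and 237, 235 and 253 at T48. iEZR_CA libraries held 4.43, 12.6 and 22.4, then 5.40, 10.6 and 9.38, and then 56.0, 58.5 and 71.9. Magel2 rose in WT within 24 h, while in iEZR_CA the rise was seen only at T48, and the interactions were -3.79 ± 0.48 (adjusted p = 8.9e-10) and -2.41 ± 0.41 (adjusted p = 1.2e-06). The lines overlapped in ESCs (adjusted p = 0.35), and the line difference at T24 was -3.36 ± 0.24 (adjusted p = 2.9e-20).

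Nnat, which encodes a small membrane protein of neural tissue, passed the test for a rise by T24 in WT alone (adjusted p = 0.077 in iEZR_CA). It was at 38.2, 41.3 and 31.5 normalized counts in WT ESCs, 135, 130 and 125 at T24, and 257, 283 and 313 at T48, and in iEZR_CA at 28.8, 29.3 and 42.0, then 39.1, 41.0 and 48.8, and then 89.5, 84.6 and 83.9. The rise by T48 was 7.57-fold in WT and 2.65-fold in iEZR_CA (interaction -1.52 ± 0.24, adjusted p = 1.9e-07). Blcap, the gene that holds Nnat in an intron and is expressed from the other copy, fell slightly in both lines, by 1.44-fold in WT and 1.19-fold in iEZR_CA by T48. Under spike-in scaling the value for iEZR_CA was 0.009 on the log2 scale. Peg12 fell in both lines. WT libraries held 382, 420 and 384 normalized counts in ESCs, 177, 146 and 123 at T24, and 204, 159 and 184 at T48, and iEZR_CA libraries held 136, 152 and 139, then 95.8, 91.9 and 105, and then 55.2, 43.9 and 42.0. Its interaction was positive at T24 (0.81 ± 0.16, adjusted p = 2.2e-05) and negative at T48 (-0.50 ± 0.17, adjusted p = 0.015), and the second was lost without WT_T48 replicate 1, iEZR_CA_ESC replicate 2 or iEZR_CA_T48 replicate 2 or 3.

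**Figure D4:**
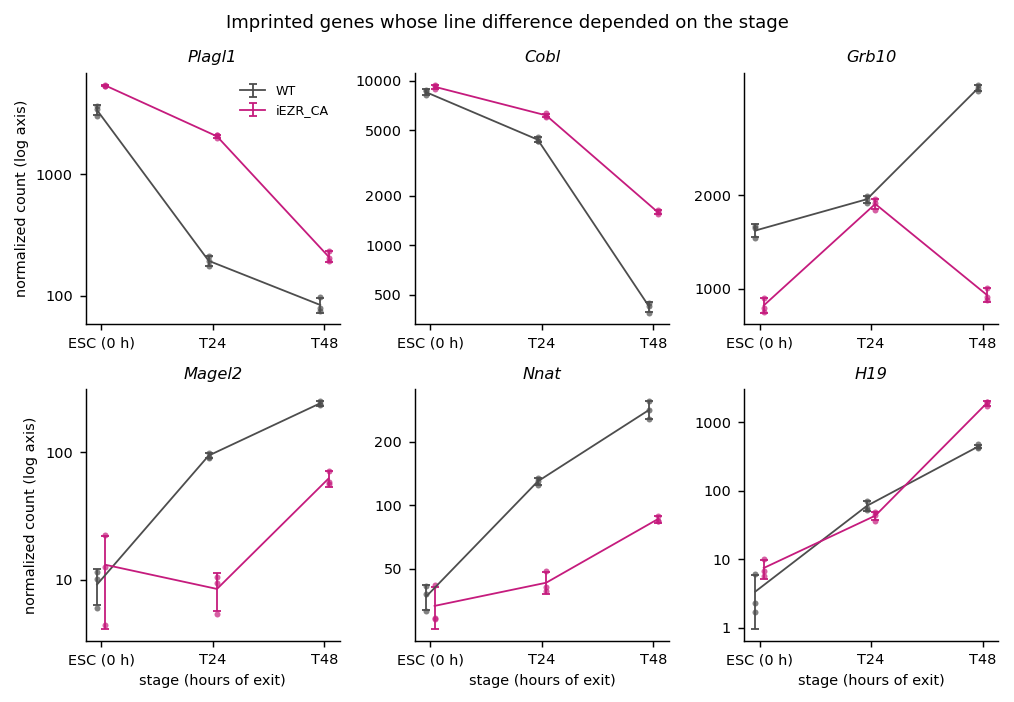
Normalized counts (y axes, log scale) of Plagl1, Cobl, Grb10, Magel2, Nnat and H19 at ESC, T24 and T48 (x axes) in WT (grey) and iEZR_CA (magenta), with a point per library and the mean and SD of 3. Plagl1 and Cobl fall less in iEZR_CA, and Magel2 and Nnat rise less in it. Grb10 at T48 is at 4432 in WT and 956 in iEZR_CA.

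With exit, more members rose than fell by T24 and T48 in each line. In WT, 25 rose and 8 fell by T24 (31.8% and 33.6% of all genes tested, 65.4% in either direction) and 30 rose and 10 fell by T48 (37.1% and 37.4%, 74.5% in either direction). In iEZR_CA, 15 rose and 11 fell by T24 (27.1% and 28.9%, 56.0% in either direction) and 26 rose and 7 fell by T48 (35.2% and 35.0%, 70.1% in either direction). Scaling on the spike-ins lifted the median gene by 0.13 and 0.27 in WT and 0.14 and 0.26 in iEZR_CA (log2, T24 and T48), and with it the counts were 25 up and 4 down at T24 in WT, 15 and 4 at T24 in iEZR_CA, 31 and 6 at T48 in WT, and 28 and 3 at T48 in iEZR_CA. The median log2 change of the members by T24 was 0.48 in WT and 0.16 in iEZR_CA, and by T48 it was 0.91 in WT and 0.70 in iEZR_CA, against 0.0058 and 0.0082 over all genes tested. The median absolute change was 1.57 and 0.99 against 0.555 and 0.456, and the value for iEZR_CA was 0.923 with Igf2 set to the bound given for it below.

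Changes in the same direction in both lines by T48 were found for 25 members upwards (27.1% of all genes) and 7 downwards (28.0%, and 55.0% in either direction), and for 27 and 3 with spike-in scaling. At least 2-fold in both lines, 17 rose (10.3%) and 3 fell (9.49%), the latter being Plagl1, Cobl and Peg12. The falls of Blcap, Slc38a4, Zrsr1 and Commd1 were smaller, between 1.19-fold and 1.71-fold. The 17 include Igf2 by its fitted value only, since its lower bound in iEZR_CA is under 2-fold. Of the other rises, those of H19, Peg10 and Cdkn1c were the largest in the line where each rose less. Of the variation of log2 values, the largest share lay between times for 25 members, between lines for 12, in the interaction for 3 (Ndn, Mcts2 and Peg13) and between replicates for 2 (Slc22a18 and Gnas). Over all genes tested the shares were 63.2%, 18.2%, 5.5% and 13.1%, and among members 59.5%, 28.6%, 7.14% and 4.76%.

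**Figure D5:**
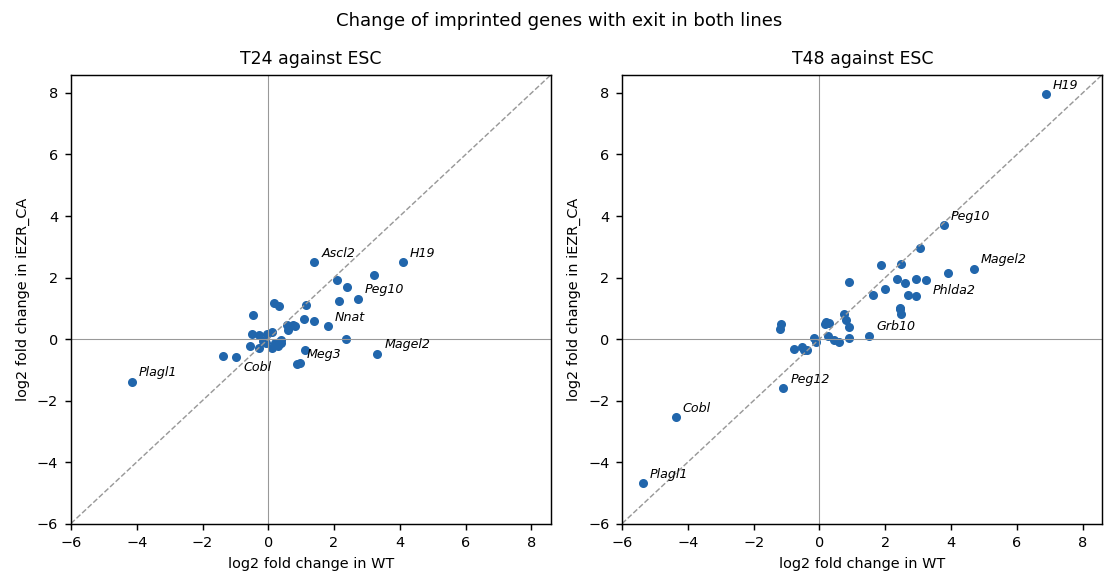
Log2 fold change from ESC to T24 (left) and to T48 (right) in WT (x axes) and iEZR_CA (y axes), with a point for each tested member except Igf2 and a dashed line where both lines changed equally. H19, Peg10 and Plagl1 lie far from zero in both lines at T48, and Magel2 at T24 lies at 3.31 in WT and -0.48 in iEZR_CA.

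H19 is a noncoding RNA expressed from the maternal copy and Igf2 a fetal growth factor expressed from the paternal copy, and both use the same enhancers. H19 was at 2.25, 6.12 and 1.70 normalized counts in WT ESCs, 71.5, 56.5 and 52.0 at T24, and 426, 472 and 430 at T48. In iEZR_CA it was at 9.97, 6.70 and 5.60, then 48.6, 44.1 and 36.6, and then 1726, 1979 and 1993. The rise by T48 was 6.88 ± 0.18 on the log2 scale in WT and 7.96 ± 0.12 in iEZR_CA, and at T48 the lines did not overlap, with 443 ± 25.6 against 1899 ± 150 (SD, n = 3, log2 difference 2.12 ± 0.06, adjusted p = 4.5e-40). At T24 the line difference was the reverse, -0.56 ± 0.17 (adjusted p = 0.004), and was lost without WT_T24 replicate 1 or with spike-in scaling. Igf2 had no read in any ESC library of either line. At T48 it was at 18.5, 11.5 and 15.5 normalized counts in WT and 9.2, 6.92 and 2.40 in iEZR_CA, which is at least 5.54-fold and at least 1.85-fold higher than the level that 3 reads per ESC library would give. The line difference of Igf2 at T48, -1.26 ± 0.41 (adjusted p = 0.0059), was lost without WT_T48 replicate 1 and with DESeq2 (adjusted p = 0.091). In the annotation 62.8% of the exon length of Igf2 is shared with an overlapping gene on the same strand, where reads would be counted as ambiguous.

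Peg10, a retrotransposon-derived gene needed for the placenta and expressed from the paternal copy, rose from 634, 667 and 583 normalized counts in WT ESCs to 4410, 3839 and 4229 at T24 and 7688, 9120 and 9391 at T48. In iEZR_CA it rose from 1093, 1067 and 1043 to 2537, 2855 and 2527 and then to 13702, 14213 and 14008. The rise by T48 was nearly equal, 13.7-fold and 13.1-fold, although the line difference was 0.76 ± 0.11, -0.65 ± 0.08 and 0.69 ± 0.07 on the log2 scale at the 3 stages. Sgce, which encodes a sarcoglycan and starts next to Peg10 on the opposite strand, was higher in iEZR_CA by 1.35 ± 0.19 in ESCs and 1.04 ± 0.17 at T24 and level at T48 (0.09 ± 0.11, adjusted p = 0.48). The ratio of Peg10 to Sgce was 22.6 ± 4.27, 97.7 ± 4.35 and 46.1 ± 9.69 in WT and 14.8 ± 0.569, 31.5 ± 7.87 and 71.0 ± 0.777 in iEZR_CA (SD, n = 3). Asb4, further along the cluster, had at most 34.4 normalized counts in any library. Its difference in ESCs (1.85 ± 0.73, adjusted p = 0.027) overlapped between lines and was lost without WT_ESC replicate 1 or 2 or iEZR_CA_ESC replicate 2 or 3.

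Cdkn1c, an inhibitor of cyclin-dependent kinases expressed from the maternal copy, rose from 16.9, 9.95 and 13.6 normalized counts in WT ESCs to 135, 114 and 113 at T24 and 122, 115 and 96.6 at T48. In iEZR_CA it rose from 13.3, 10 and 9.80 to 40.5, 49.4 and 50.6 and then to 85.3, 85.4 and 89.9. WT had thus reached its level by T24, when iEZR_CA was 2.58-fold lower (log2 difference -1.37 ± 0.15, adjusted p = 8.8e-13), while by T48 the changes were 8.32-fold and 7.77-fold with no interaction past the test (adjusted p = 0.86). Its difference at T48, -0.35 ± 0.13 (adjusted p = 0.019), was lost with DESeq2 and without WT_T48 replicate 1. Of its exon length, 30.7% is shared with an antisense gene. Kcnq1ot1, the noncoding RNA of this domain, and Gnas were the 2 members without a line difference past the test at any stage (16.4% of all genes). Kcnq1ot1 was at 184 ± 30.2, 216 ± 79.0 and 310 ± 76.2 normalized counts in WT and 229 ± 17.5, 183 ± 32.6 and 400 ± 98.4 in iEZR_CA (SD, n = 3). The 5 tested protein-coding genes of the domain thus did not move together, with Ascl2 higher and Phlda2 lower at each stage, Cdkn1c not different past the test in ESCs (adjusted p = 0.56) and lower afterwards with the limit given for T48, Slc22a18 lower in ESCs alone (-1.31 ± 0.41, adjusted p = 0.0047, lost without WT_ESC replicate 2) and Tssc4 within 0.22 on the log2 scale at each stage.

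Mest and Snrpn rose in both lines. Mest, which encodes a hydrolase of mesoderm, rose 4.26-fold by T24 and 5.60-fold by T48 in WT and 3.78-fold and 5.37-fold in iEZR_CA, and 99.5% of its variation lay between times. Of its exon length, 23.1% is shared with Copg2 on the opposite strand. Snrpn, a splicing protein gene at the centre of the Prader-Willi region, rose 6.09-fold in WT and 3.5-fold in iEZR_CA by T48 (interaction -0.80 ± 0.06, adjusted p = 9.1e-19). Of its exon length, 27.3% is shared with a gene on the same strand and a smaller part with Snurf, where reads would be counted as ambiguous. It changed from 0.59 ± 0.05 higher in iEZR_CA ESCs to 0.33 ± 0.04 lower at T24. Ndn, a neighbour of Magel2, rose 1.51-fold in WT by T48 and was at 344 ± 12.6, 337 ± 22.0 and 322 ± 33.9 normalized counts in iEZR_CA without a change past the test (adjusted p = 0.21). Zim1, a zinc finger gene of the Peg3 cluster at no more than 51.6 normalized counts, was 2.07-fold higher in iEZR_CA at T24 and 3.37-fold higher at T48.

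The other members follow by locus. Inpp5f, a phosphoinositide phosphatase gene, rose 1.87-fold in WT and 1.31-fold in iEZR_CA by T48, and Mcts2, a retrocopy within H13, was lower in iEZR_CA by 0.37 ± 0.07 at T24 and 0.32 ± 0.07 at T48. Zrsr1 lies within an intron of Commd1 on the opposite strand and shares 9.17% of its exon length with it. Peg13, a noncoding RNA within Trappc9, was 2.27-fold higher in iEZR_CA at T24. Nespas, antisense to the start of Gnas, was 1.58-fold higher in iEZR_CA at T48, and 31.4% of its exon length is shared with Gnas. Gnas, which encodes a G protein subunit, was at 65.8 to 240 normalized counts, differed at no stage past the test and had 58.0% of its variation between replicates. Gnas shares 13.1% of its exon length with Gm20721 and 8.83% with Nespas, both on the opposite strand. Airn, the noncoding RNA of the Igf2r domain, had at most 10.6 normalized counts in any library. Rasgrf1, which encodes an exchange factor of RAS, was at 0 in all 6 WT libraries of ESC and T24 and at no more than 17.2 elsewhere.

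A list of 15 genes that act on imprints or on DNA methylation, Tet1 and Tet2 among them, was read beside the members. Of these, 6 were higher and 6 lower in iEZR_CA ESCs (26.4% and 28.1% of all genes tested), 2 and 12 at T24 (30.8% and 30.1%), and 8 and 4 at T48 (31.0% and 30.1%). The largest differences at T48 were those of Dppa3, which shields the maternal genome from demethylation (1.70), Dnmt3l, a cofactor of de novo methylation (1.5), Tet2, which oxidizes methylcytosine (1.35), and Dnmt3b, a de novo methyltransferase (-1.15). Dnmt3a, the other de novo methyltransferase, was at 0.61, -1.89 and -0.53 at the 3 stages, and Zfp57, which binds methylated imprinting control regions, at -0.29, -0.10 and 0.95. The maintenance methyltransferase Dnmt1 lay within 0.09 on the log2 scale at every stage. Among 28 tested neighbours of the clusters that are not members, 11 were higher and 8 lower in ESCs, 10 and 13 at T24, and 12 and 8 at T48, beside the same shares of all genes. The largest at T48 were Tspan32 (4.05), the transporter gene Slc22a3 (-2.85), Th (1.83) and Ddc, which encodes a decarboxylase of dopamine synthesis (1.40).

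Markers of the cells that such cultures can hold moved with the same groups. Summed normalized counts of 8 naive and general pluripotency markers lay at 132000 to 135000 in WT ESCs and 118000 to 119000 in iEZR_CA ESCs, and at T48 at 23900 to 24600 and 30800 to 32100. At T24 they lay at 57600 to 58300 and 75100 to 75700. Those of 8 primitive endoderm markers lay at 6370 to 6500 and 10900 to 11000 in ESCs, at 3170 to 3290 and 6750 to 6860 at T24 and at 2370 to 2450 and 2500 to 2720 at T48, those of 8 trophoblast markers at 3080 to 3150 and 2120 to 2260 in ESCs, at 254 to 301 and 724 to 786 at T24 and at 434 to 466 and 720 to 783 at T48, and those of 6 fibroblast markers were at most 70.0 in every group but WT_T48, with 349 to 394. The sums rest on the most abundant genes of each list. Gene by gene, 4 of 7 tested trophoblast markers were higher and 2 lower in iEZR_CA ESCs (median log2 difference 0.77), against the direction of the sum, and 3 of 8 primitive endoderm markers were higher and 2 lower (median 0.103). At T24, 4 trophoblast markers were higher and 0 lower, and 2 primitive endoderm markers were higher and 0 lower. At T48, 3 trophoblast markers were higher and 3 lower (median -0.259), and 2 primitive endoderm markers were higher and 4 lower (median -0.577). Both of these medians ran against the sums at T48. Over all genes tested, 26.4% were higher and 28.1% lower in ESCs, 30.8% and 30.1% at T24, and 31.0% and 30.1% at T48. At least 1 of the fibroblast markers was at 0 reads in each group, and no primitive endoderm or trophoblast marker was. The 6 markers of cells like those of the early cleavage embryo summed to no more than 132. The part of these markers in the values of the imprinted genes was not tested.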

How the data were processed

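Polyadenylated RNA of 18 libraries was measured. The authors trimmed reads with Trim Galore 0.6.5, aligned them with GSNAP and counted them per Ensembl gene with HTSeq, and the deposited values are raw counts. The strand setting is not given in the sources used here. Gene coordinates, exon lengths and exon overlaps given above are from GENCODE M21 on GRCm38. The authors counted on another Ensembl release, whose exons can differ from these. Beside 53801 genes the table listed 92 spike-in RNAs and 5 tallies of unassigned reads, which were left out of library sizes. All 18 libraries were fitted together by group with edgeR 4.0.16 (TMM, filterByExpr, robust quasi-likelihood test, 12 residual degrees of freedom, Benjamini-Hochberg adjusted p of 0.05 over 18469 genes). Interactions compare the change with exit between lines. Normalized counts are counts divided by DESeq2 1.42.0 size factors, and ± after a log2 value is its SE. R 4.3.3, Python 3.11.15 and matplotlib 3.10.9 were used, and the fit was tested on simulated data. Replicate numbers only name libraries, in order of deposit within a group, and pair none. Replicate libraries differed by more than sampling noise, although the common biological coefficient of variation in the edgeR fit was only 2.98%. The p-values measure the spread between 3 libraries a group. Each genotype was a single line, so they do not cover the spread between independently derived lines.

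The members and gene lists were chosen with earlier results of these data known. Genes named by rule were members at least 2-fold apart at every stage, the 3 largest interactions in each direction at T24 and T48 (mean of at least 50 normalized counts), and the 5 largest changes with exit shared by both lines. Other members are named to account for all 44, and list examples are the largest line differences at T48. Slc38a2, Herc3, Rtl1, Dio3, Dnmt3a, Zfp57 and Dnmt1 were chosen after their values were seen. Alternatives were DESeq2 size factors and its Wald test, spike-in scaling, other count filters, fits on only the groups compared, and leaving out each library.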

Additional observations from a re-analysis of the deposited data

Results flagged for a closer look

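The change with exit differed between the lines, by the interaction term of the edgeR fit, in 28 members at T24 and 27 at T48. These are 66.7% and 64.3% of tested members, against 38.3% and 45.8% of all genes tested. The values that follow are log2 differences of iEZR_CA minus WT in the change from ESC, and no explanation was tested. At T24 the interaction was positive for Plagl1 (2.76), Ascl2 (1.10), Zim1 (0.98), Peg12 (0.81), Grb10 (0.76), Peg13 (0.65), Zrsr1 (0.42), Cobl (0.39), Blcap (0.35), Tssc4 (0.20) and Impact (0.13). It was negative for Magel2 (-3.79), Asb4 (-2.36), Meg3 (-1.74), Rian (-1.69), H19 (-1.60), Mirg (-1.48), Peg10 (-1.41), Nnat (-1.40), Cdkn1c (-1.12), Snrpn (-0.92), Ppp1r9a (-0.79), Nap1l5 (-0.72), Mcts2 (-0.53), Slc38a4 (-0.41), Ndn (-0.40), Inpp5f (-0.35) and Mest (-0.17).

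At T48 it was positive for Cobl (1.84), Zim1 (1.68), Slc22a18 (1.54), Ascl2 (0.94), Plagl1 (0.69), Peg3 (0.53), Zrsr1 (0.44), H13 (0.35), Impact (0.33), Blcap (0.28) and Tssc4 (0.19). It was negative for Magel2 (-2.41), Rian (-1.67), Nnat (-1.52), Meg3 (-1.48), Mirg (-1.43), Grb10 (-1.39), Phlda2 (-1.29), Sgce (-1.26), Dlk1 (-0.97), Peg13 (-0.87), Snrpn (-0.80), Ndn (-0.70), Inpp5f (-0.52), Peg12 (-0.50), Mcts2 (-0.47) and Ppp1r9a (-0.38). The T24 values of H19 (without WT_ESC replicate 3 or iEZR_CA_ESC replicate 1), Cdkn1c (without WT_ESC replicate 2 or iEZR_CA_ESC replicate 1) and Asb4, and the values of Tssc4 and the T48 value of Slc22a18, did not pass the test when single libraries were left out.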

How the results depend on the processing

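Of 8986 recomputed single-gene values, 8715 kept their direction and their side of the threshold, 215 were no longer past it, 52 came past it and 4 changed sign. The sign changes came with spike-in scaling, where the change of Tssc4 by T48 in WT was 0.11 and those in iEZR_CA were 0.053 for Slc38a4 by T24, 0.006 for Inpp5f by T24 and 0.009 for Blcap by T48. With that scaling 4 members fell by T24 and 6 by T48 in WT, 4 and 3 in iEZR_CA, and 3 by T48 in both lines. The interactions were 4 up and 9 down at T24 and 5 up at T48. The members lower at every stage were 3, those with a constant offset 5 higher and 1 lower, those with line differences of opposite sign 4, and those changed in opposite directions 2 by T24 and 1 by T48. With at least 10 counts in every library, 11 members rose at least 2-fold in both lines and 1 was at least 2-fold lower at every stage. With only the groups compared in the fit, 1 member changed in opposite directions by T48. An absolute log2 difference above 0.5 at every stage left 4 higher and 3 lower. Shares of all genes are given for the main fit alone. Counts of members under the alternatives, here and above, are therefore not set against a general rate. Windows of 1 Mb gave a local median beyond 0.5 for 2 members at T24 (Peg12 and Rasgrf1) and 2 at T48 (Grb10 and Cobl), against 0 and 0 with 5 Mb. Leaving out 1 library gave 1 to 2 members with a constant offset upwards (1 without WT_T24 replicate 1) and 0 to 1 changed in opposite directions by T48. No paired analysis was possible because the labels carry no replicate numbers, and those used here were given in order of deposit. The causes were not tested. Members with few reads, among them Igf2, Asb4, Slc22a18, Zim1, Airn and Rasgrf1, are limited by depth.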
